A study of Mus musculus with 24 samples.

Results

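The genes described here encode the subunits of the respiratory chain and of ATP synthase, in the nuclear genome and in mitochondrial DNA. They were taken by symbol from protein-coding genes of GENCODE M21 on the mouse build GRCm38: symbols starting mt-, Ndufa, Ndufb, Ndufc, Ndufs, Ndufv, Uqcr, Cox4 to Cox8 or Atp5, and Sdha to Sdhd, without the assembly factors named Ndufaf. The rule used no measured value and gave 99 of the 28328 genes with a value, 13 of them mitochondrial (mt-) and 86 nuclear. By complex, the nuclear genes numbered 38 for complex I, 4 for complex II, 8 for complex III, 18 for complex IV and 18 for complex V. The mt- genes numbered 7 for complex I, 1 for complex III, 3 for complex IV and 2 for complex V. All 13 mt- genes and 81 of the 86 nuclear genes passed the filter on low values. The other 5, Cox4i2, Cox7b2, Cox8b, Cox8c and a second gene ID named Atp5o that was listed at 0 in all 24 libraries, were not tested.

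Complexes I, III and IV pass electrons from NADH to oxygen and pump protons across the inner mitochondrial membrane, complex II passes electrons from succinate without pumping, and complex V uses the proton gradient to make ATP. Mitochondrial DNA encodes core subunits of all but complex II. Its strands are transcribed as long precursors that are cut into mRNAs, so that stability as well as transcription sets the level of each mRNA. The nuclear subunits are transcribed one by one, with NRF1, GABP, ERR and YY1 among the known regulators of their promoters.

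RNA was sequenced from LLC1, a cell line from the mouse Lewis lung carcinoma, with 3 libraries in each of 8 groups. Cells were collected 6 h or 24 h after 0.1% DMSO alone (untreated), cisplatin 2.5 µM with pemetrexed 2.5 µM (chemotherapy), trametinib 10 nM, or all 3 drugs (combination). Of these drugs, cisplatin forms crosslinks in DNA, pemetrexed is an antifolate that starves cells of nucleotides, and trametinib is a MEK inhibitor. The libraries were stranded and poly(A)-selected, from 1 cell line, and no label tells if the 3 libraries of a group were separate cultures, so p-values reflect the spread among these libraries alone, and that spread may be technical.

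Levels are in TPM, the length-adjusted unit of transcript abundance, which gives each transcript as a share of all transcripts and keeps no sequencing depth, so the reads behind each value are unknown. A difference is a log2 difference in TPM + 1 ± its standard error (SE, n = 3 libraries a group) and is smaller than the change in TPM itself where a gene is low. Rose, fell, higher call and lower call stand for a limma test with a Benjamini-Hochberg adjusted p under 0.05 over the 12581 genes tested. The 3 treated groups of a time share the same untreated libraries, so their values are given side by side. In bulk RNA fewer cells of a type and less RNA per cell cannot be told apart. Libraries of 1 group correlated at 0.982 to 0.994, and 0 pairs of libraries held identical values. The MEK pathway genes Dusp6 and Spry4 fell with trametinib at 6 h (by 1.57 and by 2.12) and at 24 h (by 1.27 and by 1.97). Of the markers of the LLC1 line all 5 exceeded 1 TPM, with Krt8 at a mean of 136 TPM and Vim at 3761 TPM. Of 5 macrophage markers, Ptprc, Adgre1 and Csf1r stayed below 1 TPM, and the sum of the 5, nearly all Cd68 and Cd14, lay at 21.5 to 27.4 TPM in untreated cells at 24 h against 47.6 to 51.8 with chemotherapy, 11.5 to 12.9 with trametinib and 26.5 to 31.0 with the combination. Of 4 endothelial markers, Cdh5, Kdr and Tek stayed below 1 TPM, and Pecam1 reached it. The sum of the 4 lay at 2.62 to 3.61 TPM in untreated cells at 24 h. It was 7.10 to 12.9 with chemotherapy, 3.46 to 4.46 with trametinib and 5.27 to 6.87 with the combination. The part of either sum in the results at 24 h was not tested.

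The coding sequences of a pair of mt- genes are shown because they bear on how reads can be assigned. The gene mt-Nd4l (chrM:9877-10173, plus strand, GRCm38) encodes a small membrane subunit of complex I. Of its 297 bases, 294 also form the pseudogene Gm10222 on chromosome 1 (chr1:24612407-24612700, minus strand), and the capitals mark the 3 bases outside that run. The gene mt-Atp8 (chrM:7766-7969, plus strand), for a small subunit of complex V, is the shortest at 204 bases, and the capitals mark the 43 bases that it shares with mt-Atp6 in another frame.
mt-Nd4l: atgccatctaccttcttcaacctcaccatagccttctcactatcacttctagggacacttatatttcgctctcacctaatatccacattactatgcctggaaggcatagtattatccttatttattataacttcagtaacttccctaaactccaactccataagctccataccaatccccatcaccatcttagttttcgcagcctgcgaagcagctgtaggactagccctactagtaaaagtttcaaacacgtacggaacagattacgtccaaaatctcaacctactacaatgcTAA
mt-Atp8: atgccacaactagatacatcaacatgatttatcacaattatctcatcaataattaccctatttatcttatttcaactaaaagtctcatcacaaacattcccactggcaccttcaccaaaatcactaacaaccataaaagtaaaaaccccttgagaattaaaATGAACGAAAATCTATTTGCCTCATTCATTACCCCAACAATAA
Gm10222 carried the same TPM as mt-Nd4l in 24 of 24 libraries, so the level of mt-Nd4l rests on how reads were divided between the pair. Of 7 pseudogenes in that stretch of chromosome 1, 1 had a value. The level of mt-Atp8 had the widest spread of the mt- genes, with a within-group SD of 0.335 on the log2 scale against a median of 0.078 over the 13. Other genes that meet on the mitochondrial genome share 1 base (mt-Atp6 and mt-Co3), 7 bases (mt-Nd4l and mt-Nd4) or, on opposite strands, 14 bases (mt-Nd5 and mt-Nd6).

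For the nuclear genes, RefSeq promoters of GRCm38.p6, from 250 bases before to 50 bases after the start, were matched for 69 of 85 symbols, giving 74 promoters. These are shown, 5′ to 3′ on the strand of the gene, for 4 members that the results return to. Capitals mark any match to the letters searched for NRF1 (the core GCATGCGC, and a long form with GC before that core), ETS or GABP (CCGGAAG), YY1 (AAGATGGCG), ERR (TCAAGGTCA) and TATAAA, on both strands. Uqcrc1 (chr9:108936398-108936697, plus strand), a core protein of complex III, has the long NRF1 letters starting at base 31 after the start site. Sdhd (chr9:50603800-50604099, minus strand), a membrane anchor of complex II, has the ETS letters, in reverse complement, starting 46 bases before the start site (position -46) and the ERR letters, in reverse complement, at base 37 after it. Ndufs6 (chr13:73328433-73328732, minus strand), a subunit of complex I, has the YY1 letters at base 34, and Cox7a1 (chr7:30183921-30184220, plus strand), the heart and muscle form of a complex IV subunit, has none of the 6.
Uqcrc1: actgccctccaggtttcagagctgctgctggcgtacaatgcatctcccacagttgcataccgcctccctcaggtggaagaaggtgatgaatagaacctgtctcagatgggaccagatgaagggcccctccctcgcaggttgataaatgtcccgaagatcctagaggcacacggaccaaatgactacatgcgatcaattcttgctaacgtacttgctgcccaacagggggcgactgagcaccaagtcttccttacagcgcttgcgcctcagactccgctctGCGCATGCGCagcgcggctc
Sdhd: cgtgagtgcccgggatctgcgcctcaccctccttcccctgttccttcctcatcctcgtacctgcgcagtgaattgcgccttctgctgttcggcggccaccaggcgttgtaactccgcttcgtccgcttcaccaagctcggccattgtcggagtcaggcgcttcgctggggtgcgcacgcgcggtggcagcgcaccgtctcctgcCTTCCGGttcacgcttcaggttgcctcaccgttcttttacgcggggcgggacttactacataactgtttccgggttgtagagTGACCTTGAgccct
Ndufs6: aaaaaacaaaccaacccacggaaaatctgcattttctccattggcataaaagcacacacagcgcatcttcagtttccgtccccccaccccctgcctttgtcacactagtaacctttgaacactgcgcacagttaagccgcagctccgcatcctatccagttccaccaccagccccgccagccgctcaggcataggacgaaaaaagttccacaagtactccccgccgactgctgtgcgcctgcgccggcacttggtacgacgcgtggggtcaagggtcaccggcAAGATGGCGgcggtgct
Cox7a1: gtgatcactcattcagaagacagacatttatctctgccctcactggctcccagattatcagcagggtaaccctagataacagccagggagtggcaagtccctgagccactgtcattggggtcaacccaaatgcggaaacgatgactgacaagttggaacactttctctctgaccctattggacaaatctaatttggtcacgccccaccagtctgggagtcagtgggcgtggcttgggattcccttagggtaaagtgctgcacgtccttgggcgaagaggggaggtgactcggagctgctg
Of the 74 member promoters, 6.76% held the long NRF1 letters against 0.971% of all 32851 promoters, and 13.5% held the core against 2.71%. ETS letters were in 21.6% against 8.86%, YY1 letters in 9.46% against 1.40%, ERR letters in 2.70% against 0.423% and TATAAA in 10.8% against 13.6%. Such matches describe letters in a window and show no binding.

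In levels per length the mt- genes stood far above the nuclear ones. The libraries were poly(A)-selected, and the part of that selection in mt- levels and in the mt- to nuclear ratios was not tested. Over the 24 libraries mt-Atp6, the proton channel subunit of complex V, had a mean of 19119 TPM, and mt-Co2 and mt-Co1, catalytic subunits of complex IV, had 18709 and 15737 TPM. Below them came mt-Co3, also of complex IV, at 11201 TPM, mt-Nd1 of complex I at 6868 TPM and mt-Cytb, the cytochrome b of complex III, at 6366 TPM. The other 7, which encode mt-Nd2, mt-Nd3, mt-Nd4, mt-Nd4l, mt-Nd5 and mt-Nd6 of complex I and mt-Atp8, lay between 1557 TPM (mt-Atp8) and 4493 TPM (mt-Nd4). The highest nuclear gene of each complex was Atp5b, the catalytic beta subunit of complex V, at 1932 TPM, Cox4i1 of complex IV at 922 TPM, Ndufa4, counted with complex I by its symbol but found in complex IV, at 623 TPM, Uqcrh of complex III at 467 TPM and Sdhc of complex II at 321 TPM. Of the 81 nuclear genes that passed the filter, 76 reached 1 TPM in all 24 libraries. The exceptions were Cox7a1 (23 libraries), Atp5g2 (8), Ndufa4l2 (4), Cox6a2 (3) and Cox6b2 (3).

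The mt- genes together took a larger share of the transcripts at 24 h in treated cells than in untreated cells, while the share of the nuclear genes overlapped between treated and untreated libraries. In untreated cells the 13 mt- genes held 8.80% ± 0.22 of TPM at 6 h and 9.70% ± 0.38 at 24 h (mean ± SD, n = 3). At 24 h they held 11.5% ± 0.77 with chemotherapy, 11.4% ± 0.12 with trametinib and 11.6% ± 0.49 with the combination, and each treated library lay above each untreated one. The 86 nuclear genes held 1.86% ± 0.043 at 24 h without drug, 1.98% ± 0.078 with chemotherapy, 1.82% ± 0.053 with trametinib and 1.83% ± 0.036 with the combination.

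Dividing the sums, the mt- to nuclear ratio was 4.51, 4.45 and 4.33 in the untreated libraries at 6 h and 5.27, 5.46 and 4.91 at 24 h. With trametinib at 24 h it was 6.20, 6.16 and 6.51, and with the combination 6.76, 6.26 and 6.08, so that neither group overlapped the untreated libraries. Chemotherapy at 24 h gave 5.28, 6.52 and 5.74, and its lowest library lay within the untreated range. On the log2 scale the ratio differed from untreated cells at 24 h by 0.16 ± 0.10 with chemotherapy, 0.27 ± 0.05 with trametinib and 0.29 ± 0.06 with the combination (± SE of the means, no test). Without chemotherapy replicate 2 the first of these was 0.08. Taken as the mean of log2(TPM + 1) over genes, so that each gene has the same weight, the differences were 0.31, 0.45 and 0.36. At 6 h the ratio was 3.79, 3.78 and 4.26 with chemotherapy, 4.14, 4.35 and 4.44 with trametinib and 4.25, 3.999 and 4.33 with the combination. The 3 chemotherapy libraries at 6 h lay below the 3 untreated ones, a difference of -0.17 ± 0.06.

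**Figure D1:**
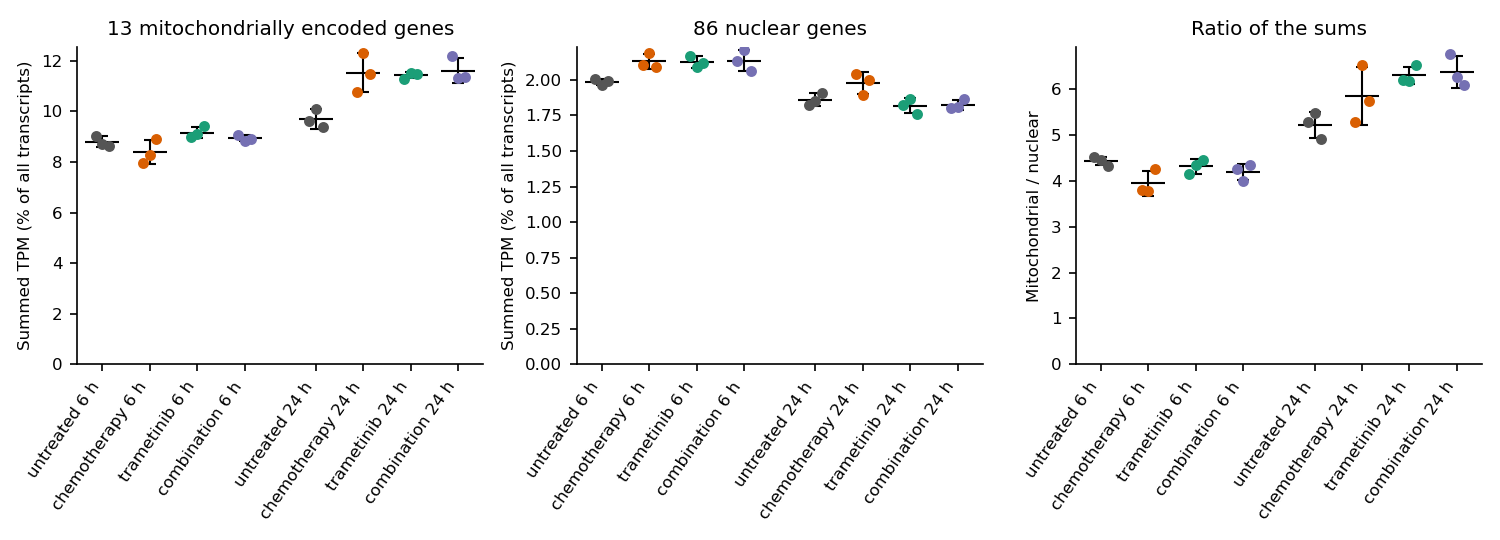
Share of TPM held by the 13 mt- genes, share held by the nuclear genes, and the ratio of the sums, in each of the 24 libraries by group. Points are libraries and bars are means ± SD (n = 3). The mt- share of treated libraries at 24 h lies above 9.70%, the untreated mean, in all 9 libraries.

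Split by complex, the rise of the ratio at 24 h was uneven. For complex I the log2 ratio of mt- to nuclear TPM was higher by 0.51 with chemotherapy, 0.49 with trametinib and 0.52 with the combination. For complex III, whose only mt- gene is mt-Cytb, it was higher by 0.52, 1.04 and 0.88. For complex IV the differences were 0.01, 0.11 and 0.18, and for complex V 0.02, 0.32 and 0.22.

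Between untreated cells at 6 h and at 24 h, mt- genes differed in opposite directions. Time in culture cannot be told apart here from other differences between those collections. In untreated cells mt-Co1 rose and mt-Cytb fell from 6 h to 24 h, and of the 13 mt- genes 3 rose and 3 fell, where 29.4% of all genes tested rose and 31.4% fell. The level of mt-Co1 (chrM:5328-6872) was 11550 ± 175 TPM at 6 h and 21151 ± 668 at 24 h (SD, n = 3), a difference of 0.87 ± 0.06 (limma, adjusted p = 8.67e-10). The level of mt-Cytb (chrM:14145-15288) went from 6294 ± 85.2 to 3956 ± 412 TPM, a difference of -0.67 ± 0.06 (limma, adjusted p = 3.11e-08). Neither gene's libraries overlapped between the times. The other complex IV genes rose less, mt-Co2 by 0.23 ± 0.07 and mt-Co3 by 0.20 ± 0.06, while mt-Nd1 fell by 0.26 ± 0.07 and mt-Nd3 fell by 0.31 ± 0.07. Without the filter on low values the calls of mt-Co2 and mt-Co3 were lost.

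Among the nuclear genes 13 rose and 23 fell from 6 h to 24 h in untreated cells, with a median of -0.07 against -0.01 over all genes tested. The 13 hold Cox6a2, which passed the filter through untreated cells at 24 h alone, so that its rise was set by the filter. Among the nuclear genes at 1 TPM in 6 or more libraries, 12 rose and 23 fell. Without untreated 6 h replicate 1 the falls numbered 15. Cox7a2l, which takes part in joining complexes III and IV into supercomplexes, rose from 203 to 352 TPM, a difference of 0.79 ± 0.04 (limma, adjusted p = 2.99e-12). Of the 3 genes for the c ring of ATP synthase, Atp5g1 fell from 481 to 277 TPM (-0.79 ± 0.08) and Atp5g3 from 553 to 323 TPM (-0.78 ± 0.09). Sdhd fell by 0.42 ± 0.04, and Atp5s, a factor associated with ATP synthase, rose by 1.15 ± 0.13.

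At 6 h, 2 of the 94 tested respiratory chain genes were called with chemotherapy, 13 with trametinib and 26 with the combination. Chemotherapy gave 0 calls among the 13 mt- genes, where limma called 11.3% of all genes tested higher and 13.5% lower. At an unadjusted p under 0.05 it gave 4 lower and 0 higher mt- genes. Of the nuclear genes, 1 rose (Ndufa5 of complex I, 0.23 ± 0.06) and 1 fell (Ndufs1, the largest iron-sulfur subunit of complex I, -0.18 ± 0.06). Ndufa5 lost its call without chemotherapy replicate 2 (0.18), and Ndufs1 did so without that library (-0.14), without untreated replicate 2 (-0.15) or without untreated replicate 3 (-0.18). Without chemotherapy replicate 3, 2 mt- genes were called lower and 4 nuclear genes higher, and without chemotherapy replicate 1, 3 nuclear genes were called higher.

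Trametinib at 6 h gave 2 higher and 0 lower mt- genes, where 35.9% of all genes tested were called higher and 18.9% lower. These were mt-Cytb (0.18 ± 0.06, limma, adjusted p = 0.0218) and mt-Co3 (0.19 ± 0.06, limma, adjusted p = 0.0148). Neither call was kept when all libraries were rescaled by the median ratio of their genes (0.06 and 0.07), and neither was kept without trametinib replicate 3, where 0 mt- genes were called. The call of mt-Cytb was also lost without untreated replicate 2, untreated replicate 3 or trametinib replicate 1. In the nuclear genome 10 genes rose and 1 fell. Ndufv3, a small accessory subunit of the NADH-binding arm of complex I, rose by 0.68 ± 0.12, and Sdha, the catalytic subunit of complex II, by 0.26 ± 0.06. Smaller rises were those of Ndufv2 (0.26 ± 0.05), an iron-sulfur subunit of the same arm, and of Ndufa11 (0.32 ± 0.09), a membrane subunit whose call was lost after rescaling (0.20). Uqcrfs1, the Rieske iron-sulfur protein of complex III, fell by 0.15 ± 0.05, a call lost without trametinib replicate 1 (-0.13) or 2 (-0.12). The higher nuclear genes numbered 6 without untreated replicate 2 and 6 without untreated replicate 3.

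The combination at 6 h gave 1 higher and 3 lower mt- genes, where 38.6% of all genes tested were called higher and 19.8% lower. mt-Co3 rose by 0.27 ± 0.06, while mt-Nd3 (-0.22 ± 0.07), mt-Nd5 (-0.38 ± 0.11) and mt-Nd6 (-0.40 ± 0.10), all of complex I, fell. The call of mt-Co3 was lost after rescaling (0.13), and that of mt-Nd3 was lost without untreated replicate 1 (-0.17) or combination replicate 3 (-0.14). In the nuclear genome 21 genes rose, among them Ndufv3 (0.66 ± 0.12) and Atp5s (0.40 ± 0.13, not called after rescaling), and Uqcrfs1 fell by 0.15 ± 0.05. The rises numbered 12 without untreated replicate 3. The median of all genes tested was itself above 0 at 6 h (0.10 with trametinib and 0.11 with the combination), and stood at 0.0045 and -0.017 after rescaling by the median ratio, which moved single genes by a median of -0.11 and of -0.14. After that rescaling the nuclear genes had 4 higher and 6 lower calls with trametinib and 6 higher and 4 lower with the combination, so the balance toward higher calls was not kept. The share of higher among all called genes went from 65.5% to 50.5% with trametinib and from 66.1% to 49.6% with the combination.

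After 24 h more mt- genes were higher than lower in each treatment against untreated cells. The lower calls were mt-Co1 with trametinib and mt-Atp8 with the combination, and mt-Co2 had no call. Chemotherapy gave 7 higher and 0 lower calls among the 13, where 34.9% of all genes tested were called higher and 24.3% lower, and the median mt- difference was 0.32 against 0.06 over all genes. At an unadjusted p under 0.05 it gave 10 higher and 0 lower. Trametinib gave 10 higher and 1 lower (32.4% of all genes called higher, 26.3% lower), with a median of 0.42 against 0.04. The combination gave 9 higher and 1 lower (39.6% of all genes called higher, 23.8% lower), with a median of 0.41 against 0.10.

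The largest mt- difference at 24 h was that of mt-Cytb with trametinib. Its level in untreated cells at 24 h was 3758, 4429 and 3681 TPM. It was 5769, 6596 and 6333 TPM with chemotherapy, 8095, 7919 and 8097 TPM with trametinib and 7095, 6728 and 6896 TPM with the combination. Every treated library exceeded every untreated one, and the 3 treated groups did not overlap each other. The differences were 0.66 ± 0.06 (limma, adjusted p = 4.15e-08), 1.03 ± 0.06 (6.41e-11) and 0.81 ± 0.06 (1.57e-09). At 6 h untreated cells had stood at 6392, 6250 and 6240 TPM, a range that the chemotherapy libraries at 24 h overlapped and the trametinib libraries exceeded.

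Among the complex I genes, mt-Nd1 and mt-Nd2, both membrane subunits, stood highest after chemotherapy. The level of mt-Nd1 was 5567, 6209 and 5050 TPM in untreated cells at 24 h and 8501, 9893 and 9131 TPM with chemotherapy. The 2 groups did not overlap, and the difference was 0.71 ± 0.07 (limma, adjusted p = 3e-08), against 0.24 ± 0.07 with trametinib and 0.41 ± 0.07 with the combination. For mt-Nd2 the differences were 0.74, 0.49 and 0.69 (each ± 0.06), and for mt-Nd4 0.48, 0.45 and 0.55 (each ± 0.06). The genes mt-Nd5 (0.60, 0.45 and 0.46, each ± 0.11) and mt-Nd6 (0.50, 0.45 and 0.37, each ± 0.10) rose in all 3 comparisons. They lie on opposite strands, but the strand setting used in counting is not given. Their levels over the 8 groups correlated at 0.99, and whether mt-Nd6 was measured apart from mt-Nd5 was not tested. How poly(A) selection captured either mRNA was not tested. After rescaling by the median ratio, mt-Nd6 with the combination was no longer called (0.24). mt-Nd3 rose with trametinib (0.34 ± 0.07), and its differences of 0.16 with chemotherapy and 0.01 with the combination were not called, the first of them until untreated replicate 2 (0.20) or chemotherapy replicate 2 (0.21) was left out. mt-Nd4l rose with trametinib (0.54 ± 0.12) and with the combination (0.42 ± 0.12), and its difference of 0.25 with chemotherapy was not called, although without chemotherapy replicate 2 it was 0.44 and called.

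The complex IV genes differed from each other. The level of mt-Co1 at 24 h was 20875, 20666 and 21914 TPM without drug and 20221, 22278 and 21020 TPM with chemotherapy, a difference of 0.00 ± 0.06. It was 16295, 18978 and 17479 TPM with trametinib, below all 3 untreated libraries, a difference of -0.27 ± 0.06 (limma, adjusted p = 0.00113). Without the filter on low values that adjusted p was 0.12. With the combination it was 20163, 19511 and 18363 TPM, also below the untreated libraries, but the difference of -0.13 ± 0.06 was not called. mt-Co2 had no call (0.06, 0.09 and 0.08, each ± 0.07), and mt-Co3 rose in all 3 comparisons (0.32, 0.42 and 0.57, each ± 0.06). Of the complex V genes, mt-Atp6 rose with trametinib (0.34 ± 0.08) and the combination (0.33 ± 0.08) and stood at 0.18 ± 0.08 with chemotherapy. The calls of mt-Atp6 were lost without the filter on low values, and the second was lost after rescaling (0.20). mt-Atp8 fell with the combination, from 1588 ± 314 to 873 ± 322 TPM (SD, n = 3), a difference of -0.91 ± 0.25 (limma, adjusted p = 0.0042). It shares 43 bases on the same strand with mt-Atp6, which was higher in the same comparison. The part of read assignment in these opposite calls was not tested.

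**Figure D2:**
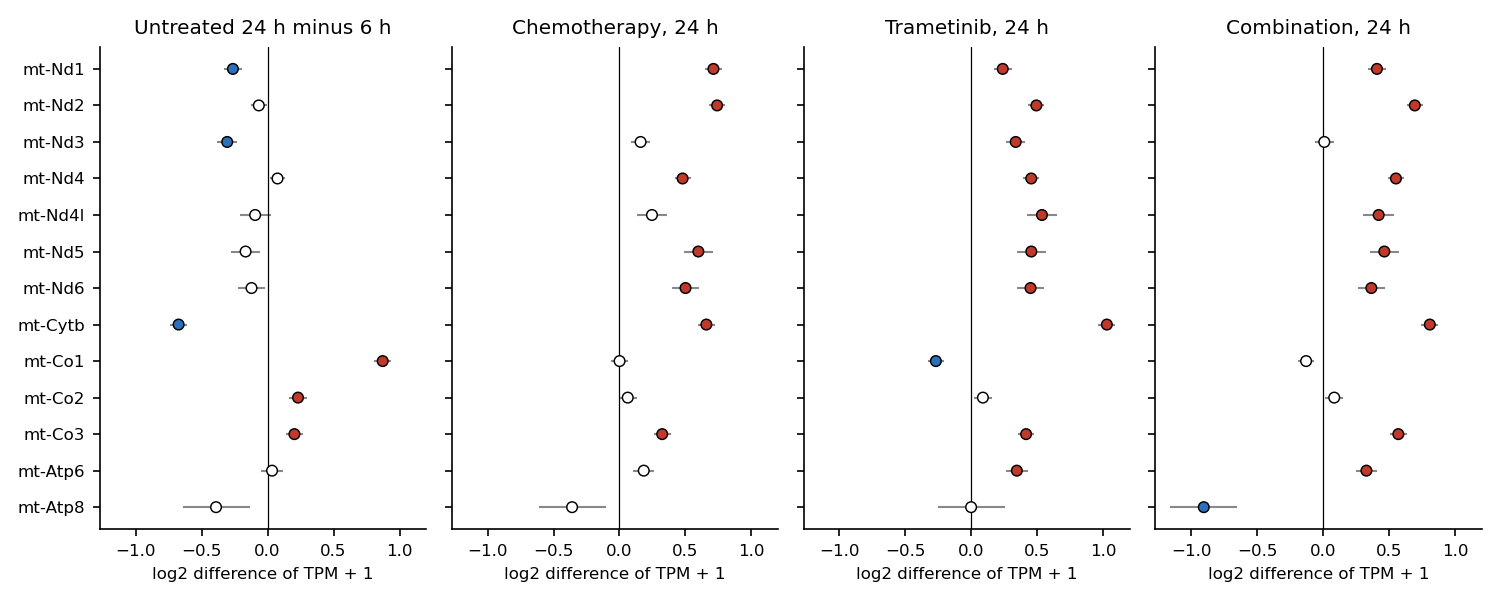
Log2 difference in TPM + 1 of each of the 13 mt- genes, for untreated cells at 24 h against 6 h and for each treatment against untreated cells at 24 h, with SE as bars, where red marks a higher call, blue a lower call and white no call. At 24 h mt-Cytb lies highest with trametinib at 1.03, and mt-Co1 lies between -0.27 and 0.00.

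The ratio of mt-Co1 to mt-Cytb was taken within each library, where scaling between libraries cancels. It was not among the measures planned, and it restates the changes of both genes given above rather than adding to them. From 6 h to 24 h the mean of mt-Cytb fell in untreated cells alone, as above, and was higher at 24 h in the treated groups (from 5668 to 6233 TPM with chemotherapy, 7140 to 8037 with trametinib and 6695 to 6906 with the combination, no test), while mt-Co1 was higher at 24 h in all 4. The ratio was 1.84 in untreated cells at 6 h, 2.05 with chemotherapy, 1.65 with trametinib and 1.75 with the combination (means, n = 3). At 24 h it was 5.39 ± 0.66 (SD) in untreated cells, with libraries between 4.67 and 5.95. It was 3.40 ± 0.095 with chemotherapy, 2.19 ± 0.19 with trametinib and 2.80 ± 0.12 with the combination, and none of the treated groups overlapped the untreated one.

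**Figure D3:**
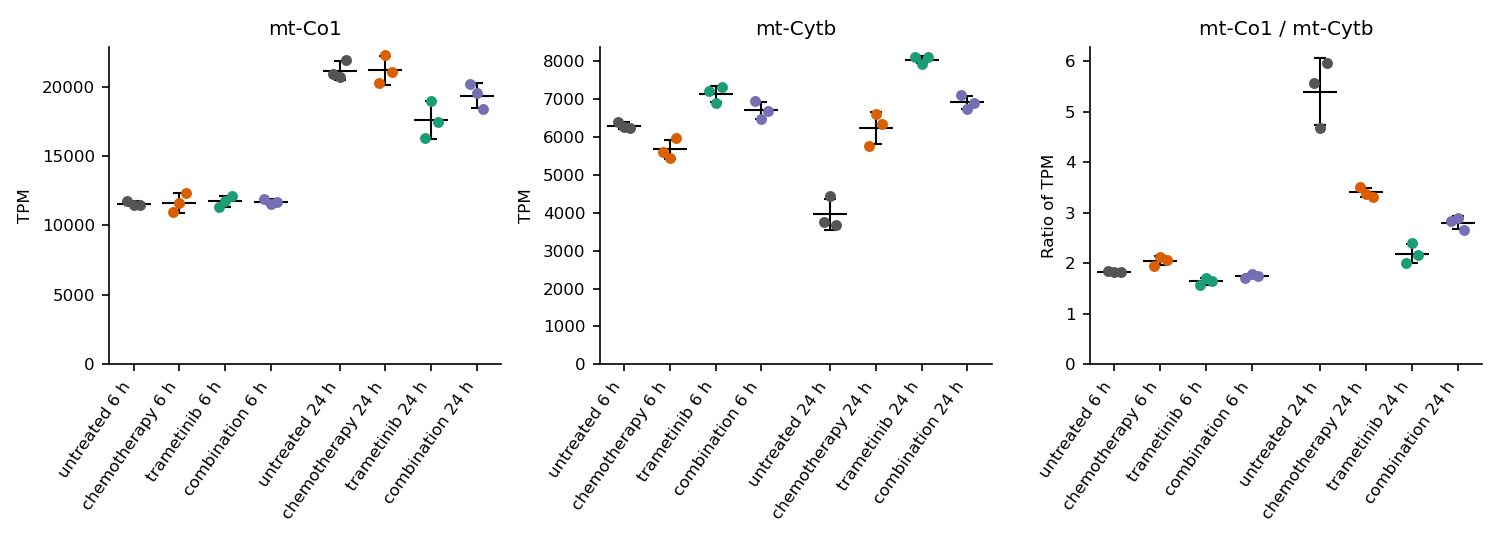
TPM of mt-Co1, TPM of mt-Cytb and the ratio of the 2 in each of the 24 libraries by group, with mean ± SD (n = 3). The ratio lies between 4.67 and 5.95 in untreated libraries at 24 h and at most 3.51 in the treated ones.

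The effects at 24 h differed from those at 6 h for most mt- genes, by a test of the difference itself. For chemotherapy 9 of 13 mt- genes had a higher effect at 24 h and 0 a lower one, where 28.3% of all genes tested had a higher and 16.7% a lower one. Trametinib gave 8 higher and 1 lower (15.9% and 22.3% of all genes), and the combination 8 higher and 0 lower (25.3% and 24.3% of all genes). The lower call was that of mt-Co1 (-0.29), and it was lost after rescaling (-0.22, limma, adjusted p = 0.14) and without the filter on low values (limma, adjusted p = 0.32). At an unadjusted p under 0.05 the counts were 10 and 0 for chemotherapy and 10 and 0 for the combination. For mt-Cytb the effect at 24 h exceeded that at 6 h by 0.81 with chemotherapy, 0.85 with trametinib and 0.72 with the combination. The untreated libraries of both times enter these values, and the fall of mt-Cytb between them is part of each.

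Nuclear genes moved in both directions at 24 h. Chemotherapy gave 18 higher and 12 lower calls among the 81 tested, where 34.9% of all genes tested were called higher and 24.3% lower. Trametinib gave 9 and 19 (32.4% and 26.3% of all genes), and the combination 14 and 21 (39.6% and 23.8%). These counts hold Cox6a2, Cox6b2 and Ndufa4l2, which passed the filter through the 1 or 2 groups where they were high, so that a difference there was set by the filter. Among the other 78 the calls were 16 and 11, 9 and 18, and 13 and 20. The medians of the 81 were 0.04, -0.10 and -0.13 against 0.06, 0.04 and 0.10 over all genes. After rescaling by the median ratio, which took the median of all genes from 0.10 to -0.012 with the combination, that comparison gave 8 higher and 38 lower nuclear calls. The share of higher among all called genes in that comparison went from 62.4% to 50.2%.

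In complex I, with 38 nuclear genes, 6 rose and 5 fell with chemotherapy, 3 rose and 11 fell with trametinib, and 5 rose and 14 fell with the combination. These counts read against the shares of all genes given above. Ndufa4l2 is 1 of the 6 and 1 of the 5. The 5 that fell with chemotherapy were Ndufa6, Ndufb3, Ndufs1, Ndufs4 and Ndufs8, the 3 that rose with trametinib were Ndufa5, Ndufs3 and Ndufv3, and the 5 that rose with the combination included Ndufa5, Ndufs3 and Ndufv3, some of them named here after their values were seen. Ndufv3 rose in each comparison. Its level was 118, 128 and 140 TPM without drug, 253, 327 and 278 TPM with trametinib and 289, 257 and 279 TPM with the combination. Neither group overlapped the untreated one, and the differences were 1.14 ± 0.12 (limma, adjusted p = 1.83e-07) and 1.09 ± 0.12 (2.6e-07). With chemotherapy Ndufv3 was higher by 0.40 ± 0.12, a call lost without chemotherapy replicate 3 (0.29) and after rescaling (0.33). Falls with the combination included Ndufs6 (from 136 to 88.8 TPM, -0.61 ± 0.10) and Ndufs8 (-0.63 ± 0.10), an iron-sulfur subunit. Ndufc2 (-0.67 ± 0.22) also fell, but its call was lost without untreated replicate 3 (-0.48) or combination replicate 1 (-0.45). Ndufb6 fell with trametinib (-0.49 ± 0.13), and Ndufa6 fell with chemotherapy (-0.50 ± 0.17), a call lost without untreated replicate 3 (-0.35) or chemotherapy replicate 2 (-0.31).

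Of the 4 complex II genes 1 rose and 1 fell in each comparison, beside the shares of all genes given above. Sdhd rose in all 3. Its level was 140, 142 and 130 TPM without drug, 211, 207 and 204 TPM with chemotherapy, 170, 167 and 162 TPM with trametinib and 192, 193 and 188 TPM with the combination. The 4 groups did not overlap, and the differences were 0.59 ± 0.04 (limma, adjusted p = 5.61e-11), 0.27 ± 0.04 (2.1e-06) and 0.48 ± 0.04 (7.87e-10). Sdhb, the iron-sulfur subunit of the same complex, fell with trametinib (-0.46 ± 0.07) and with the combination (-0.39 ± 0.07).

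Complex III, with 8 nuclear genes, had 2 higher and 2 lower calls with chemotherapy, 2 and 4 with trametinib and 1 and 2 with the combination. All genes tested had 34.9% higher and 24.3% lower calls with chemotherapy, 32.4% and 26.3% with trametinib and 39.6% and 23.8% with the combination. Uqcrh, the hinge protein, rose in each (0.37, 0.53 and 0.39, each ± 0.07), and the core protein Uqcrc2 (-0.43, -0.26 and -0.35, each ± 0.07) and the Rieske protein Uqcrfs1 fell in each. The other core protein, Uqcrc1, named after its values were seen, rose with chemotherapy from 121 to 151 TPM and fell with trametinib to 98.4 TPM. Uqcrb rose by 0.27 ± 0.07 with trametinib. Uqcr10 fell with trametinib (-0.46 ± 0.14), a call lost without trametinib replicate 3 (-0.34).

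Complex V, with 17 nuclear genes tested, had 6 higher and 2 lower calls with chemotherapy, 2 and 1 with trametinib and 4 and 2 with the combination. All genes tested had 34.9% higher and 24.3% lower calls with chemotherapy, 32.4% and 26.3% with trametinib and 39.6% and 23.8% with the combination. Both lower calls with chemotherapy and with the combination were Atp5s and Atp5c1, and the 4 higher calls with the combination were Atp5f1, Atp5h, Atp5j2 and Atp5o. Atp5o, which encodes the OSCP subunit that links the head of the enzyme to its stalk, rose from 326 TPM to 474 TPM with chemotherapy (0.54 ± 0.05) and to 459 TPM with the combination (0.49 ± 0.05). Atp5j2 rose with trametinib (0.47 ± 0.09) and with the combination (0.53 ± 0.09). Atp5s fell with chemotherapy (-0.47 ± 0.13) and was the lower call with trametinib (-0.51 ± 0.13). Atp5g1 and Atp5g3, which had fallen over time in untreated cells, were higher with chemotherapy at 24 h, by 0.53 ± 0.08 and by 0.31 ± 0.09, and the call of Atp5g3 was lost without chemotherapy replicate 1 (0.22).

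**Figure D4:**
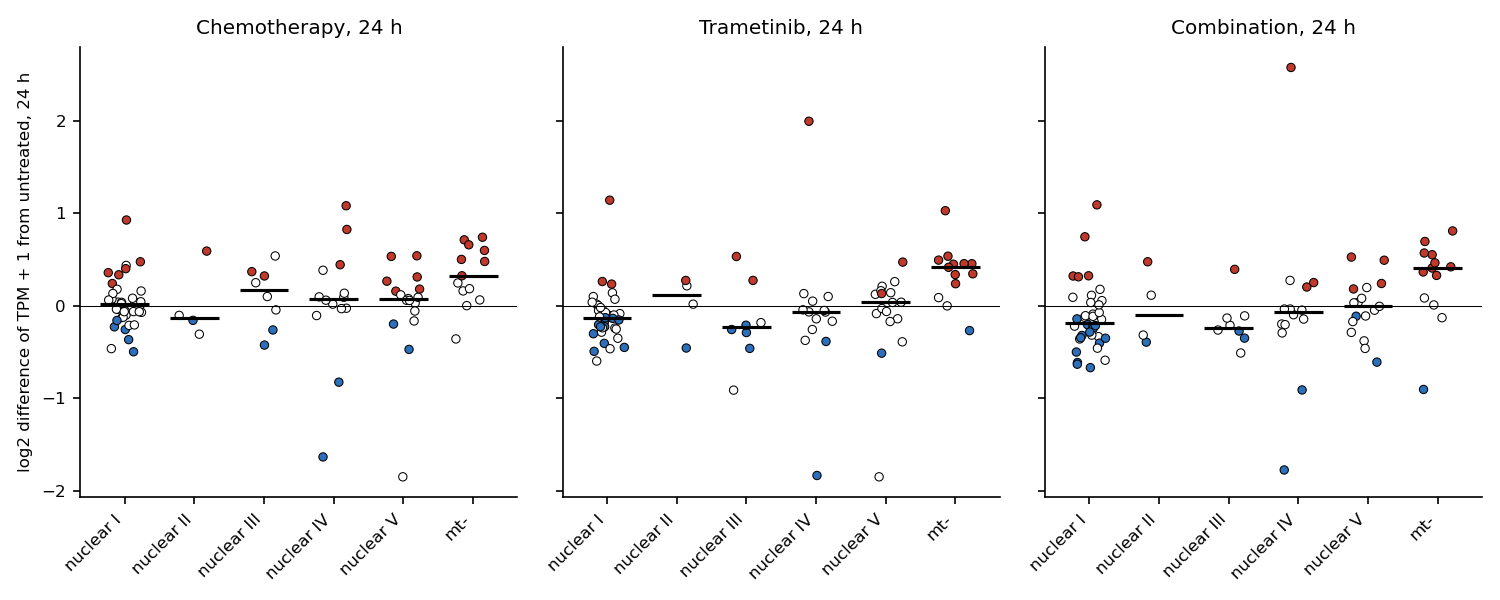
Log2 difference in TPM + 1 from untreated cells at 24 h for each tested member, by genome and complex, where red marks a higher call, blue a lower call, white no call and the line the median. The mt- genes lie mainly above 0, and the nuclear genes of each complex lie on both sides of it.

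Complex IV, with 14 nuclear genes tested, had 3 higher and 2 lower calls with chemotherapy, 1 and 2 with trametinib and 3 and 2 with the combination. All genes tested had 34.9% higher and 24.3% lower calls with chemotherapy, 32.4% and 26.3% with trametinib and 39.6% and 23.8% with the combination. Of the called complex IV genes, Cox6a2, lower in each, and Cox6b2, higher with chemotherapy, passed the filter only through the group where they were high. Both are described by level below. Among the other 12 the calls were 2 higher and 1 lower, 1 and 1, and 3 and 1. The higher ones were Cox4i1 and Cox7a1 with chemotherapy, Cox7a1 with trametinib, and Cox4i1, Cox7a1 and Cox7a2l with the combination. The lower one was Cox7c with chemotherapy and the combination, and Cox5a with trametinib. Its members include tissue or condition variants, of which Cox7a1 changed most. Cox7a1 stood at 0.881, 3.63 and 1.34 TPM in untreated cells at 24 h. It stood at 6.76, 13.6 and 10.4 TPM with trametinib and at 15.2, 18.5 and 12.7 TPM with the combination, above every untreated library in both groups. The differences were 1.99 ± 0.27 (limma, adjusted p = 3.24e-06) and 2.58 ± 0.27 (8.63e-08). With chemotherapy (2.82, 3.81 and 5.17 TPM) the libraries overlapped the untreated ones, and the call at 0.82 ± 0.27 was lost without untreated replicate 1 (0.56), untreated replicate 3 (0.71) or chemotherapy replicate 3 (0.65). At 6 h Cox7a1 rose with trametinib from 1.77, 1.53 and 1.62 TPM to 4.17, 2.88 and 3.70 TPM (0.79 ± 0.27), a call lost without untreated replicate 2 (0.76) or trametinib replicate 1 (0.70). With the combination at 6 h it rose to 7.45, 5.18 and 5.16 TPM (1.38 ± 0.27). As a percent of its widely expressed partner Cox7a2, Cox7a1 was 0.974 ± 0.703 in untreated cells at 24 h, 4.84 ± 1.48 with trametinib and 8.07 ± 1.56 with the combination (SD, n = 3).

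A group of 3 variants passed the filter through 1 or 2 groups only, so their differences there are a description. Cox6a2, the heart and muscle form of Cox6a, stood at 2.34, 1.48 and 4.46 TPM in untreated cells at 24 h, at most 0.489 TPM at 6 h, and was listed at 0 in all 3 trametinib libraries at 24 h. Cox6b2, the testis form of Cox6b, was at 1.74, 1.58 and 1.52 TPM with chemotherapy at 24 h and below 1 TPM in all other libraries. Ndufa4l2, a relative of Ndufa4 known as a hypoxia target, was at 0.970, 1.42 and 1.44 TPM with chemotherapy and 1.09, 0.769 and 1.15 TPM with the combination at 24 h, against 0.153 to 0.215 TPM without drug. Cox7c, a short ubiquitous subunit, had calls of -0.83 ± 0.33 with chemotherapy and -0.91 ± 0.33 with the combination. The first rests on chemotherapy replicate 2 (432, 121 and 509 TPM) and was -0.18 without it, and the second was lost when combination replicate 3, untreated replicate 1 or untreated replicate 3 was left out. Cox4i1 rose with chemotherapy (0.44 ± 0.07).

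**Figure D5:**
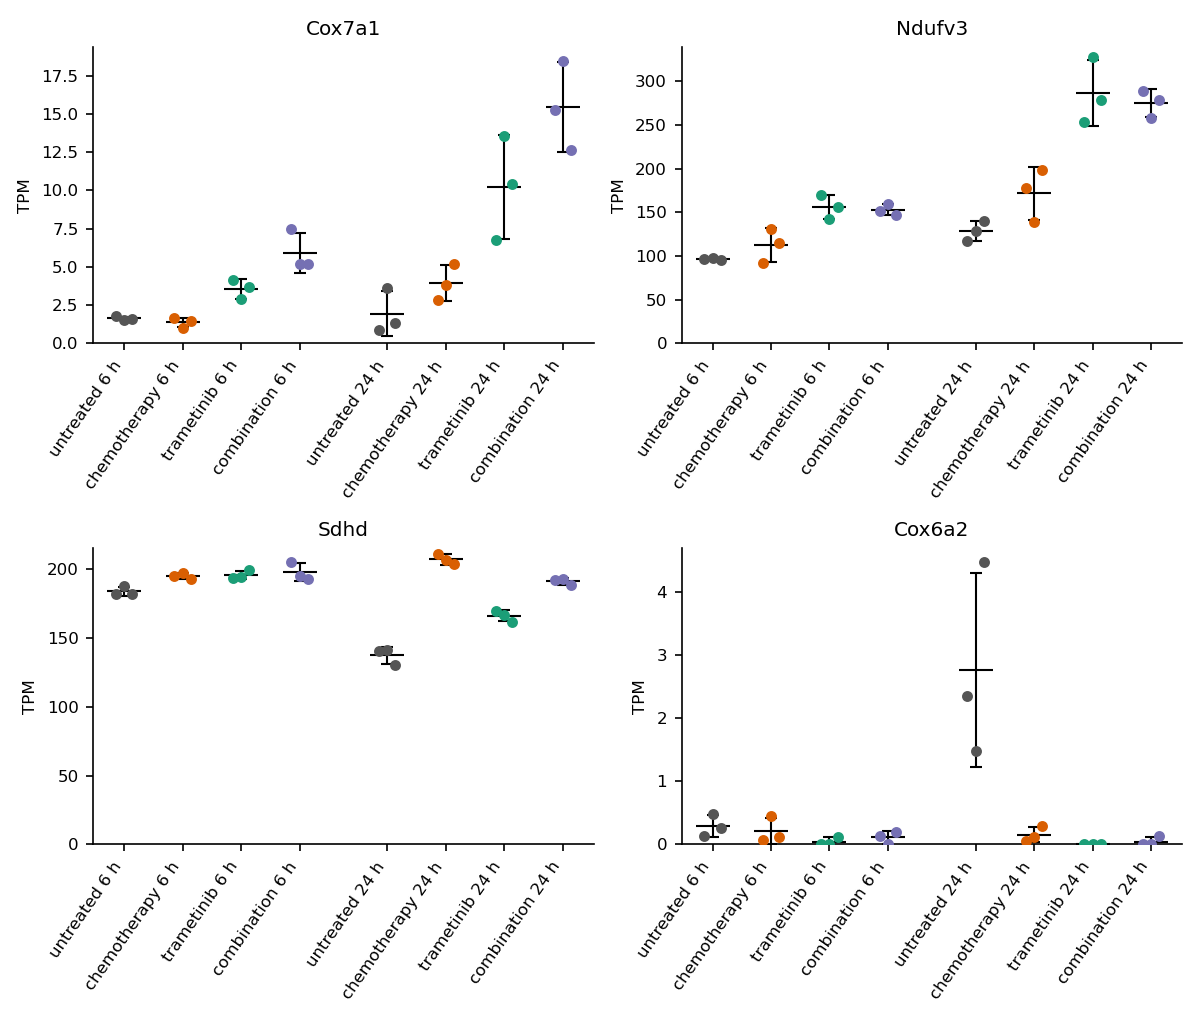
TPM in each of the 24 libraries by group for 4 nuclear members, with mean ± SD (n = 3). Cox7a1 and Ndufv3 are highest with trametinib and the combination at 24 h, Sdhd is lowest in untreated cells at 24 h (130 to 142 TPM), and Cox6a2 is highest there.

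Adding trametinib to chemotherapy was tested against chemotherapy alone. At 24 h, where 30.3% of all genes tested were called higher and 23.2% lower, 1 mt- gene was higher and 1 lower. mt-Co3 was higher by 0.25 ± 0.06 (limma, adjusted p = 0.00284) and mt-Nd1 was lower (-0.30 ± 0.07, limma, adjusted p = 0.000821). At 6 h mt-Cytb (0.24 ± 0.06) and mt-Co3 (0.17 ± 0.06) were the 2 mt- genes that were higher and 0 were lower, where 39.7% of all genes were called higher and 16.4% lower, and 3 were higher and 0 lower at an unadjusted p under 0.05. After rescaling these 2 stood at 0.08 and 0.02 and were not called, and mt-Co3 also lost its call without chemotherapy replicate 1 (0.13), combination replicate 1 (0.17) or combination replicate 2 (0.16). The call of mt-Co3 at 24 h was lost after rescaling too (0.19). At 24 h 2 mt- genes were higher and 2 lower at an unadjusted p under 0.05. Of the 81 nuclear genes tested, 16 were higher and 5 lower at 6 h by that threshold, and 6 were higher and 28 lower at 24 h. The shares of all genes above are at the adjusted threshold. Cox7a1 was higher with the combination at both times (1.53 ± 0.27 and 1.75 ± 0.27), as was Ndufv3 (0.45 ± 0.12 and 0.69 ± 0.12). At 24 h Ndufc2 was lower (-1.10 ± 0.22), and Sdhd was lower by a small amount (-0.12 ± 0.04).

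Genes that act on the respiratory chain were read from lists by role, with no test of a list. Each count reads against the share of all genes called, which at 24 h was 34.9% higher and 24.3% lower with chemotherapy, 32.4% and 26.3% with trametinib and 39.6% and 23.8% with the combination. Of 17 genes for mitochondrial DNA transcription and replication, 3 rose and 8 fell with chemotherapy at 24 h, 3 and 5 with trametinib and 4 and 6 with the combination. Tfam, which packages mitochondrial DNA and starts its transcription, fell with trametinib at 6 h (-0.36) and was higher with chemotherapy at 24 h (0.30), a call lost without untreated replicate 3 (0.20). Tfb2m, its partner at the promoter, fell with trametinib at 6 h (-0.78) and rose at 24 h with chemotherapy (0.59) and the combination (0.42). Polrmt, the mitochondrial RNA polymerase, was lower with the combination (-0.34), a call lost without untreated replicate 3 (-0.23) or combination replicate 1 (-0.20). Mgme1, a mitochondrial exonuclease, rose with chemotherapy (1.38) and the combination (1.06), and the topoisomerase Top1mt fell with trametinib (-0.94) and the combination (-0.77).

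Of 22 genes for the processing, polyadenylation and decay of mitochondrial RNA, 2 rose and 15 fell with trametinib at 6 h, where 35.9% of all genes rose and 18.9% fell. At 24 h 7 rose and 4 fell with chemotherapy, 3 and 14 with trametinib and 7 and 9 with the combination. Lrpprc, which stabilises mitochondrial mRNAs, fell with trametinib at 6 h (-0.52). Fastkd1, an RNA-binding protein of mitochondria, fell with trametinib at 6 h (-0.81) and 24 h (-1.51) and with the combination at 24 h (-1.46). Its relatives Fastkd3 and Fastkd5 rose with chemotherapy at 24 h (1.00 and 0.99). Trmt10c, a subunit of the RNase that cuts precursors at tRNA ends, fell with trametinib at 6 h (-0.75) and rose with chemotherapy at 24 h (0.84).

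Of 15 tested nuclear regulators of respiratory genes, 3 rose and 4 fell with chemotherapy at 24 h, 2 and 7 with trametinib and 4 and 3 with the combination, beside the shares of all genes given above. Nrf1, whose letters were searched above, fell in all 6 comparisons, by 0.82 with chemotherapy, 0.25 with trametinib and 1.20 with the combination at 6 h and by 1.02, 0.38 and 0.80 at 24 h. Myc fell with trametinib at 6 h (-1.34) and 24 h (-1.23) and with the combination at 6 h (-1.57). Gabpa, the DNA-binding subunit of GABP, was lower with chemotherapy at 6 h (-0.50), a call lost without chemotherapy replicate 2 (-0.37). Yy1 rose with chemotherapy at 24 h (0.83). Ppargc1a, a coactivator of mitochondrial genes, was called higher with the combination at 24 h, from 0.565 to 1.88 TPM. These levels lie near the 1 TPM of the filter. Whether the gene passed the filter only through the groups where it was high was not checked, so its call is a description.

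The mitochondrial ribosome list, with 78 genes, had 23 higher and 17 lower calls with chemotherapy at 24 h, 6 and 34 with trametinib and 14 and 33 with the combination, where 34.9%, 32.4% and 39.6% of all genes were called higher and 24.3%, 26.3% and 23.8% lower. Among its members Mrpl49 rose with chemotherapy (1.29) and the combination (1.19) and Mrps10 fell with trametinib (-1.19). Of 48 tested assembly factors, 12 rose and 18 fell with chemotherapy, 9 and 19 with trametinib and 10 and 20 with the combination. Ndufaf4, an assembly factor of complex I, fell with trametinib at 6 h (-1.13) and with the combination at 24 h (-1.03).

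Several members share sequence with copies elsewhere, and their levels are uncertain. Atp5g2 held the same TPM as the pseudogene Gm10231 in 24 of 24 libraries and ranged from 0 to 45.7 TPM between libraries of untreated cells at 24 h, so no difference is given for it, while another copy, Gm10175, stood at 286 TPM. The copies Gm10221 of Atp5l (330 TPM, against 325 for the gene), Cox6c2 of Cox6c (402 against 501 TPM) and Ndufb4c of Ndufb4 (124 against 49.9 TPM) stood near or above the level of the gene. Smaller copies belonged to Ndufs5, Ndufab1, Uqcrb and Atp5g1 (15.1 to 34.9 TPM).

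Short genes varied more between libraries of 1 group. Over 76 nuclear members the within-group SD on the log2 scale had a median of 0.111 and a range of 0.036 to 0.565, and its Spearman rho with transcript length was -0.44 across genes (13 mt- genes, -0.62), which are not independent because they share the same libraries. A set of 9, chosen after their values were seen, Ndufs5, Ndufs7, Uqcr11, Uqcrq, Cox5b, Cox6a1, Cox7c, Cox8a and Atp5l, had the widest spread. Not all of the 9 are short, as Ndufs7 has 758 bases against a median of 610.5 over the 76 nuclear members. In chemotherapy replicate 1 at 6 h the 9 lay a median of 0.48 above their group means. Uqcrq was at 380 TPM against 166 and 168 and Cox8a at 463 TPM against 194 and 164. In chemotherapy replicate 2 at 24 h the 9 lay at -0.49. The part of this spread in the results was not tested.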

How the data were processed

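RNA of 24 libraries of LLC1 cells, 3 in each of 8 groups of treatment and time, was measured by sequencing. The authors deposited a table of TPM per transcript. The submitters' processing notes name bcl2fastq 2.17.1.14, kallisto 0.45 and the build GRCm38. The version of the transcript set and the strand setting are not given in the sources used here. Per the series' design text the authors tested differences with DESeq2, a count model that cannot be run on TPM, and took a Bonferroni adjusted p under 0.10.

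Transcript TPM were summed per gene with GENCODE M21 (Python 3.11.15, pandas 2.3.3), which matched 79662 of 82934 transcripts. The other 3272 held 4.45% to 5.98% of TPM and entered no gene. TPM keeps no depth, so no counting interval is given. The test was limma 3.58.1 (R 4.3.3) on log2(TPM + 1), for the 12581 of 28328 genes that reached 1 TPM in 3 or more libraries, with 1 mean per group over all 24 libraries (16 residual degrees of freedom) and trended, moderated variances. In each of 12 comparisons the Benjamini-Hochberg adjustment of two-sided p-values covered all genes tested, with a threshold of 0.05. Sums over members were described without a test. Copies were matches of at least 95% identity over at least 100 bases with BLAST+ 2.17.0. The steps were tested on simulated data.

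The members and lists were chosen with earlier results of these data known. Named were all mt- genes, up to 5 rises and 5 falls of nuclear members in each comparison with untreated cells, the tissue variants and their partners, the highest member of each complex, and from each list its first 3 members and the 4 called members of lowest p. Uqcrc1 and the 9 genes of wide spread were named after their values were seen, and the ratio of mt-Co1 to mt-Cytb was not planned. Cox6a2, Cox6b2 and Ndufa4l2, which reached 1 TPM in fewer than 6 libraries, are given by level only. Results on 1 member that the rule names are not reported here. Alternatives were the Bonferroni rule, other pseudocounts, filters and scalings, fits on fewer groups, a replicate block, leaving out each library, and the TPM of copies added to mt- genes. Adding copies to nuclear members as well was an alternative chosen after seeing the data.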

Additional observations from a re-analysis of the deposited data

Results flagged for a closer look

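Some effects at 24 h differed from the effects of the same drugs at 6 h by a test of the difference itself (limma, Benjamini-Hochberg adjusted p under 0.05). The values are the log2 effect at 24 h minus that at 6 h. The untreated libraries of both times enter every value, so a change of untreated cells over time is part of each. Nuclear genes are listed only where they were among the named genes and do not stand for the 81 tested. At an unadjusted p under 0.05, 11 of the 81 had a higher and 11 a lower effect with chemotherapy. With trametinib these counts were 5 and 23, and with the combination 7 and 23. At the adjusted threshold all genes tested had 28.3% and 16.7%, 15.9% and 22.3%, and 25.3% and 24.3%.

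With chemotherapy the effect was higher at 24 h for the complex I genes mt-Nd1 (0.79), mt-Nd2 (0.86), mt-Nd3 (0.35), mt-Nd4 (0.55), mt-Nd4l (0.44), mt-Nd5 (0.90) and mt-Nd6 (0.76). It was also higher for mt-Cytb (0.81), mt-Co3 (0.23), Sdhd (0.51) and Cox7a1 (0.98).

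With trametinib it was higher for mt-Nd1 (0.28), mt-Nd2 (0.53), mt-Nd3 (0.43), mt-Nd4 (0.38), mt-Nd4l (0.44), mt-Nd5 (0.54), mt-Nd6 (0.57) and mt-Cytb (0.85). The same held for Ndufv3 (0.46), Sdhd (0.18) and Cox7a1 (1.21). It was lower for mt-Co1 (-0.29), the only mt- gene called with a lower effect at 24 h under any of the 3 treatments. That call was lost after rescaling by the median ratio (-0.22) and without the filter on low values.

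With the combination it was higher for mt-Nd1 (0.43), mt-Nd2 (0.75), mt-Nd4 (0.49), mt-Nd4l (0.59), mt-Nd5 (0.84), mt-Nd6 (0.76), mt-Cytb (0.72), mt-Co3 (0.30), Ndufv3 (0.43), Sdhd (0.37) and Cox7a1 (1.20).

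Some of these calls were not kept when single libraries were left out. Of the 12 libraries behind each value, leaving out 1 at a time ended the call of Cox7a1 in 9 cases, of mt-Nd4l in 8 and of mt-Co3 in 8 with chemotherapy. With trametinib it did so for mt-Nd4l in 9 cases, for Ndufv3 in 9, for mt-Nd1 in 4 and for Cox7a1 in 2, and with the combination for Ndufv3 in 10. The other values kept their call in all 12 cases, though some lost it under other settings, and mt-Cytb stayed between 0.67 and 0.93 over the 3 treatments. Of the 34 effects, rescaling ended 6 calls: mt-Nd3, mt-Nd4l, mt-Co3 and Cox7a1 with chemotherapy, mt-Co1 with trametinib and Ndufv3 with the combination. Testing without the filter on low values ended 9: mt-Nd4l, mt-Co3 and Cox7a1 with chemotherapy, mt-Nd1, mt-Nd4l, mt-Co1 and Ndufv3 with trametinib, and mt-Co3 and Ndufv3 with the combination. The Bonferroni rule ended 24.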

How the results depend on the processing

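The 207 results on named genes were tried under 3840 alternatives in all. In 3558 of these the direction and the side of the threshold were kept, in 260 the call was lost, in 9 a call was gained and in 13 the sign turned. Of 76 counts for lists and complexes, 1085 of 1216 alternatives stayed within 1.5 times. The depth behind the TPM is unknown, so no limit from counting is given, and the cause of the changes below was not tested.

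Under the Bonferroni rule the higher mt- genes numbered 4 with chemotherapy, 4 with trametinib and 4 with the combination at 24 h, 0 and 0 with trametinib and the combination at 6 h, and 1 over time in untreated cells. Lower mt- genes numbered 0, 0 and 0 with trametinib at 24 h and with the combination at 24 h and 6 h, and 1 over time. For the 24 h minus 6 h effects they were 4, 2 and 2 higher (chemotherapy, trametinib, combination) and 0 lower with trametinib. The nuclear genes then had 6 higher and 2 lower calls with chemotherapy at 24 h, 4 and 3 with trametinib, 5 and 3 with the combination, 0 and 0 with chemotherapy or trametinib at 6 h, 1 and 0 with the combination at 6 h, and 3 and 3 over time.

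Rescaling by the median ratio gave 0 higher mt- genes with trametinib and the combination at 6 h, 6 lower with the combination at 6 h, 2 lower with it at 24 h and 0 lower for the trametinib 24 h minus 6 h effect. The nuclear genes then had 2 higher with chemotherapy at 6 h, 4 higher and 6 lower with trametinib at 6 h, 6 and 4 with the combination at 6 h, and 8 and 38 with it at 24 h. Without a filter on low values the mt- genes had 0 higher at 6 h with trametinib and the combination, 1 higher over time, and 0 lower with trametinib at 24 h or in its 24 h minus 6 h effect. With a mean of at least 5 TPM, 1 mt- gene was lower and 2 nuclear genes higher with chemotherapy at 6 h, and 2 nuclear genes were lower with trametinib at 6 h. From the libraries of one time, 1 mt- and 0 nuclear genes were lower with chemotherapy at 6 h and 2 nuclear genes lower with trametinib at 6 h, and from the 2 groups compared alone 1 mt- gene was lower, 2 nuclear genes higher and 0 lower with chemotherapy at 6 h. Without mitochondrial transcripts in the TPM 2 nuclear genes were lower with trametinib at 6 h, with a pseudocount of 0.1 it was 3, and with copies added 2 nuclear genes were higher with chemotherapy at 6 h. Taken as the mean of log2 values over genes, the mt- minus nuclear difference was 0.31 with chemotherapy and 0.45 with trametinib at 24 h, -0.17 with the combination at 6 h and 0.021 over time. Leaving out 1 library put the higher nuclear genes of the combination at 6 h between 12 and 20 and the lower ones over time between 15 and 19, and the other counts are given beside the results above.

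The numbers of the replicates did not pair the libraries. Over 84 pairs of libraries with the same number, the correlation of deviations from group means had a median of -0.035 (-0.36 to 0.44, 23 above 0.1), and 6 of 24 libraries correlated best with their own number. A fit with a replicate block moved no count of mt- or nuclear genes by over 1.5 times, and 4 named results missed the threshold in it: the 24 h minus 6 h effects of chemotherapy on mt-Co3 and Cox7a1 (adjusted p = 0.054 and 0.052) and those of trametinib and the combination on Ndufv3 (0.057 and 0.058).

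The named results that turned sign were small and not called. Rescaling gave mt-Nd3 with the combination -0.12, mt-Co1 with chemotherapy -0.070, and mt-Co2 -0.0085 with chemotherapy and -0.045 with the combination, all at 24 h. Leaving out 1 library put mt-Nd3 with the combination between -0.049 and 0.052, mt-Co1 with chemotherapy between -0.036 and 0.033, mt-Atp8 with trametinib between -0.18 and 0.16, and mt-Atp6 over time between -0.0057 and 0.076.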

Other observations

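Genes next to the respiratory chain in mitochondrial metabolism moved in both directions at 24 h, where 34.9% of all genes tested were called higher and 24.3% lower with chemotherapy, 32.4% and 26.3% with trametinib and 39.6% and 23.8% with the combination. Of 14 citric acid cycle genes, 5 rose and 6 fell with chemotherapy, 1 and 9 with trametinib and 0 and 7 with the combination. Suclg2, the GTP-forming subunit of succinyl-CoA ligase, fell with chemotherapy (-0.97) and the combination (-1.02), and Idh3a, a subunit of the NAD-dependent isocitrate dehydrogenase, fell with trametinib (-0.63). Of 17 genes for mobile carriers and coenzyme Q, 4 rose and 8 fell with chemotherapy, 4 and 5 with trametinib and 5 and 8 with the combination. Coq8a, which is needed to make coenzyme Q, rose with trametinib at 6 h (1.12) and 24 h (1.17), and Coq3, a methyltransferase of the same path, fell at 24 h with chemotherapy (-1.12) and the combination (-1.40).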
